A study of Danio rerio with 6 samples.

Results

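The nuclear genes for the subunits of the mitochondrial respiratory chain and the ATP synthase were described in zebrafish homozygous for the fr105 allele of *ikzf1*, in comparison with wild-type siblings. Members were the genes of the count table whose symbol begins with ndufa, ndufb, ndufc, ndufs, ndufv, sdha, sdhb, sdhc, sdhd, uqcr, atp5, cox4, cox5, cox6, cox7 or cox8. The ndufaf assembly factors were left out, and at least 10 counts summed over the 6 libraries were required. Of 32105 genes in all, 97 fitted the symbol rule and 95 passed the minimum. These comprised 38 genes of complex I, 4 of complex II, 8 of complex III, 21 of complex IV (including the *ndufa4* genes, whose product is a complex IV subunit) and 20 of complex V, and 4 assembly factors of complex II (*sdhaf1* to *sdhaf4*) that the prefix sdha takes in. Just inside the minimum was *ndufa4l2b* with 10 counts, and just outside were a further copy of *sdhd* with 4 counts and *ndufa4l2* with 0. A total of 94 members passed the low-count filter of edgeR and were tested, and *ndufa4l2b* was not.

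RNA was sequenced from 3 fr105 homozygotes (replicates 1 to 3) and from 3 wild-type siblings (replicates 4 to 6). All 6 are labelled as whole body at 5 days after fertilization and come from a mixture of wild-type strains. According to the methods, each library is an individual fish. The fr105 allele is a CRISPR/Cas9-induced deletion inside *ikzf1*, the gene for the zinc finger transcription factor Ikaros1, after which the protein keeps only its first zinc finger. The groups share no other allele or treatment that the labels name.

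The respiratory chain is the series of protein complexes in the inner mitochondrial membrane that passes electrons from NADH and succinate to oxygen and pumps protons as it does so. The ATP synthase, complex V, uses the returning protons to make ATP. Complexes I, III, IV and V are each built from subunits encoded in the nucleus and subunits encoded by mitochondrial DNA, whereas all subunits of complex II are nuclear. Dividing blood cells and early erythroid cells are rich in mitochondria, and mature red cells of fish, unlike those of mammals, retain some.

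Total counts ranged from 34759504 to 38383935 in the mutants and from 38177112 to 39404324 in wild type, and no pair of libraries agreed within sampling noise. Levels are given below as CPM (counts scaled to library size by the TMM method), which compare one gene between libraries but, without gene lengths, not different genes with each other. The whole-gene count of *ikzf1* (ENSDARG00000013539) was 53145, 44700 and 29104 in the mutants, and 8746, 6776 and 10579 in wild type. The mutants were 2.37 higher on the log2 scale (standard error, SE, 0.23), with an adjusted p of 0.000362 by the quasi-likelihood test of edgeR, after Benjamini-Hochberg adjustment. The count also covers exons outside the deletion, so it does not check the genotypes. Markers of the labelled whole body were largely missing. Of 13 matched skeletal muscle genes, 5 had 0 counts in every library, among them *pvalb1*, *pvalb2* and *myhz2*, and the largest count of any was 227 (*tnnt3a*). The 7 heart genes reached at most 8 counts and the 5 lens genes at most 6, whereas all 8 genes of a kidney tubule list were detected. A single gene of that list reached 8433 counts, and the summed count of the list was at most 10391 in any library. The label is kept, and the cells of origin were not established. In bulk RNA, fewer cells of a type and less RNA per cell cannot be told apart.

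Most nuclear subunit genes had an estimate slightly above 0 in fr105 mutants over wild type, and few of the differences passed the test. Of 94 members tested, 4 were called higher (*ndufs6*, *ndufc2*, *ndufs4* and the second *cox5b* gene) and 1 was called lower (*cox8b*), at an adjusted p of 0.05 in edgeR's quasi-likelihood test. Over all 16630 genes tested, 11.0% were called higher and 8.76% lower, or 19.8% in either direction, so the 5.32% of members called lay below the background. DESeq2 called 8 members higher and 2 lower, beside 11.7% and 9.67% of all genes. The estimate was above 0 for 83 of the 94 members, against 49.5% of all genes. The median log2 fold change was 0.20, a 1.15-fold difference, with a range of -0.69 to 0.94. The median of all genes was -0.0048. In 41 members every mutant library lay above every wild-type library (43.6%, background 21.3%), and in 4 every mutant library lay below (4.26%, background 20.6%). An unadjusted p under 0.05 was found on the higher side in 31 of 94 members, beside 18.7% of all genes. On the lower side it was found in 3 members, beside 2820 of 16630 genes. Of the members, 94.7% had an absolute log2 fold change under 0.5, as had 66.2% of all genes. The median SE was 0.117 for the members and 0.181 for all genes tested, so these shares compare estimates of unlike precision. The number of calls changed when a library was left out, among the members as over all genes. Without mutant replicate 1, mutant replicate 3 or wild-type replicate 5, the calls over all genes fell from 3291 to 1938, 1927 and 2152. By edgeR, no member was called higher when mutant replicate 1, mutant replicate 3 or wild-type replicate 5 was left out, 1 was without wild-type replicate 4, and 7 were without mutant replicate 2, whereas the median stayed between 0.14 and 0.26.

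**Figure D1:**
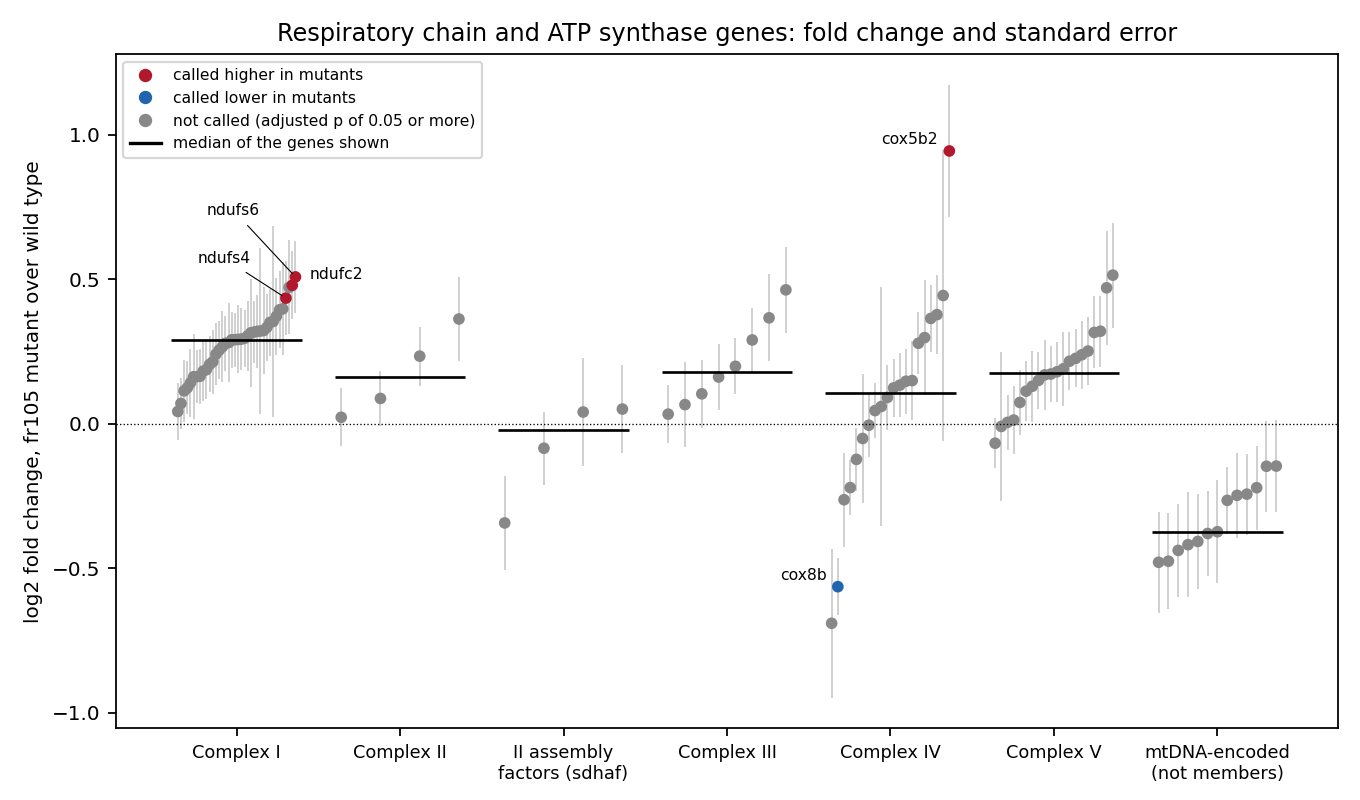
Log2 fold change (fr105 mutant over wild type) of the 94 members tested, ordered by size within each complex, and of 13 genes encoded by mitochondrial DNA. Points are genes, grey lines are 1 standard error to each side, black bars are medians and colours mark the 5 members called. All 38 complex I genes lie above 0 (37 with upper quartile scaling), complex IV runs from -0.69 to 0.94, and all 13 mitochondrial genes lie below 0.

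Complex I, the NADH dehydrogenase at the entry of the chain, had the most even values. All 38 members had an estimate above 0 (37 with upper quartile scaling or without wild-type replicate 5), from 0.04 for *ndufb1* to 0.51 for *ndufs6*, with a median of 0.29, a 1.22-fold difference. In 25 of the 38 all mutants were above wild type (21.3% of all genes). An unadjusted p under 0.05 was found in 19, all on the higher side (18.7% of all genes). The 3 that passed the test are all accessory subunits, which do not carry the redox centres, as are 31 of the 38 members. They are 9.68% of the accessory subunits, beside 11.0% of all genes called higher. *ndufs6* (ENSDARG00000056583), a zinc-binding subunit next to the NADH-oxidizing arm, had 33.0, 27.6 and 29.1 CPM in the mutants, and 19.0, 20.1 and 23.9 CPM in wild type. The fold change was 0.51 on the log2 scale (SE 0.12, edgeR adjusted p = 0.0255). All mutants were above all wild-type fish.

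*ndufc2* (ENSDARG00000102115), a small subunit of the membrane arm, had 33.6, 29.6 and 32.2 CPM in the mutants and 22.7, 20.1 and 25.6 CPM in wild type. The log2 difference came to 0.48 (SE 0.12, edgeR adjusted p = 0.0255), and the groups did not overlap. *ndufs4* (ENSDARG00000052840), needed for a stable NADH-oxidizing arm in mammals and a gene mutated in human Leigh syndrome, had 34.4, 26.8 and 28.8 CPM in the mutants and 23.0, 19.9 and 23.7 CPM in wild type. On the log2 scale the difference was 0.43 (SE 0.13, edgeR adjusted p = 0.0490), just inside the threshold. The highest of the 3 mutants was replicate 1 in each of these genes. *ndufs6* and *ndufc2* both lost the call without mutant replicate 1 or 3 or wild-type replicate 4 or 5, with an adjusted p of up to 0.0902 and 0.0877 in edgeR. *ndufs4* lost it without any single library other than mutant replicate 2, at up to 0.146.

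The other parts of complex I gave values of similar size. The 7 nuclear core subunits, those that the bacterial enzyme also has, were at a median of 0.24 on the log2 scale, and the 31 accessory subunits at 0.29. None of the core subunits was called by edgeR, beside 19.8% of all genes. On the higher side 3 had an unadjusted p under 0.05 (18.7% of all genes). In 5 all mutants were above wild type (21.3% of all genes). Among the 7 core subunits, *ndufv1*, which binds NADH, had a log2 fold change of 0.12 with overlapping groups. Split by module after the values were seen, the 9 genes of the NADH-oxidizing module had a median of 0.31 and the 5 of the quinone module one of 0.24. The widest spread in complex I was that of *ndufb2*, a membrane arm subunit, with 33.3, 37.3 and 18.9 CPM in the mutants and 26.4, 29.2 and 16.1 CPM in wild type. One fish in each group was low, and the within-group SD on the log2 scale was 0.48.

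Complexes II and III deliver electrons from succinate and pass them on to cytochrome c. All 4 and 8 of their estimates were also above 0 (3 and 7 with upper quartile scaling). No member passed the test in edgeR, beside 19.8% of all genes. In complex II, the succinate dehydrogenase, the log2 fold change was 0.02 for the flavoprotein *sdha* and 0.09 for the iron-sulphur protein *sdhb*, both with overlapping groups. The membrane anchors *sdhc* and *sdhd* had values of 0.23 and 0.36, both without overlap. *sdhd* (ENSDARG00000030139) had 45.1, 38.2 and 38.9 CPM in the mutants and 32.2, 25.8 and 37.0 CPM in wild type (edgeR adjusted p = 0.117). Of the complex II members, 1 had an unadjusted p under 0.05 on the higher side (18.7% of all genes), and DESeq2 called 0 of 4. The 4 sdhaf assembly factors, which mature these subunits, had a median of -0.02, with *sdhaf1* at -0.34 and its mutants below wild type in all fish (edgeR adjusted p = 0.168).

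In complex III the median of 8 members was 0.18 and the largest value was that of *uqcrfs1* (ENSDARG00000007745), the Rieske iron-sulphur protein. It had 159, 111 and 126 CPM in the mutants, and 96.6, 85.4 and 105 CPM in wild type. The groups did not overlap, and the highest fish was mutant replicate 1. The fold change was 0.46 on the log2 scale (SE 0.15, edgeR adjusted p = 0.0625), and DESeq2 called this gene and no other of complex III. *uqcrc1*, a core protein on the matrix side, had 148, 109 and 121 CPM in the mutants and 97.1, 84.3 and 112 CPM in wild type, so that mutant replicate 2 fell below wild-type replicate 6. Of the 8 members, 3 had an unadjusted p under 0.05 on the higher side, beside 18.7% of all genes. The median was 0.11 without mutant replicate 1, and 6 of 8 estimates were above 0 without wild-type replicate 5. The remaining subunits ranged from 0.03 for *uqcrc2a* to 0.29 for *uqcrc2*.

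Complex IV, the cytochrome c oxidase, was the only complex with a member called in each direction by edgeR. The estimate was above 0 in 13 of 20 members, with a median of 0.11. That median was 0.06 with upper quartile scaling or without wild-type replicate 4, and 0.066 without mutant replicate 1. In 3 members all mutants were above wild type, and in 3 different ones (*cox8b*, *cox4i2* and *cox7a2l*) all mutants were below. That is 15% in each direction, under the 21.3% and 20.6% of all genes. The clearest difference among all 94 members was that of *cox8b* (ENSDARG00000097209), one of a pair of genes for the small transmembrane subunit 8, whose namesake in mammals is a heart and skeletal muscle form. It had 24.4, 23.0 and 24.9 CPM in the mutants, and 38.6, 33.3 and 35.0 CPM in wild type. The groups were far apart in relation to their spread, and the mutants lay close together. The log2 difference came to -0.56 (SE 0.10, edgeR adjusted p = 0.00688), and the call was kept under all 14 alternatives tried, with values of -0.61 to -0.50 and an adjusted p of 0.0130 to 0.0285 in edgeR when 1 library was left out. The partner gene *cox8a* (ENSDARG00000095273), the ubiquitous form in mammals, had 127, 116 and 101 CPM in the mutants and 109, 116 and 121 CPM in wild type. On the log2 scale the difference was -0.0048 (SE 0.11), with fully overlapping groups, and the sign turned under some settings. Of the counts on both genes together, *cox8b* took 16.1%, 16.5% and 19.8% in the mutants and 26.1%, 22.3% and 22.5% in wild type.

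The other called gene of complex IV belongs to the pair for subunit 5b, a zinc-binding subunit on the matrix side. The gene table gives both copies the symbol *cox5b*, and tables of the study call the second one cox5b2 (ENSDARG00000068738). This copy had 19.8, 22.8 and 19.6 CPM in the mutants, and 15.1, 9.24 and 8.01 CPM in wild type. All mutants were above wild type, in which replicate 4 stood closest to the mutants. The fold change was 0.94 on the log2 scale (SE 0.23, edgeR adjusted p = 0.0248), the largest of any member, and the call was lost when any library but wild-type replicate 4 was left out (adjusted p of up to 0.0766), with values of 0.77 to 1.27. The first copy (ENSDARG00000015978) was at 0.15 on the log2 scale (SE 0.11, edgeR adjusted p = 0.386), with overlapping groups. The second copy made up 8.03%, 10.3% and 9.37% of the counts of the pair in the mutants and 7.96%, 4.92% and 3.80% in wild type, so wild-type replicate 4 lay just below the lowest mutant. Reads that match both of such related copies cannot be told apart by the counting.

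**Figure D2:**
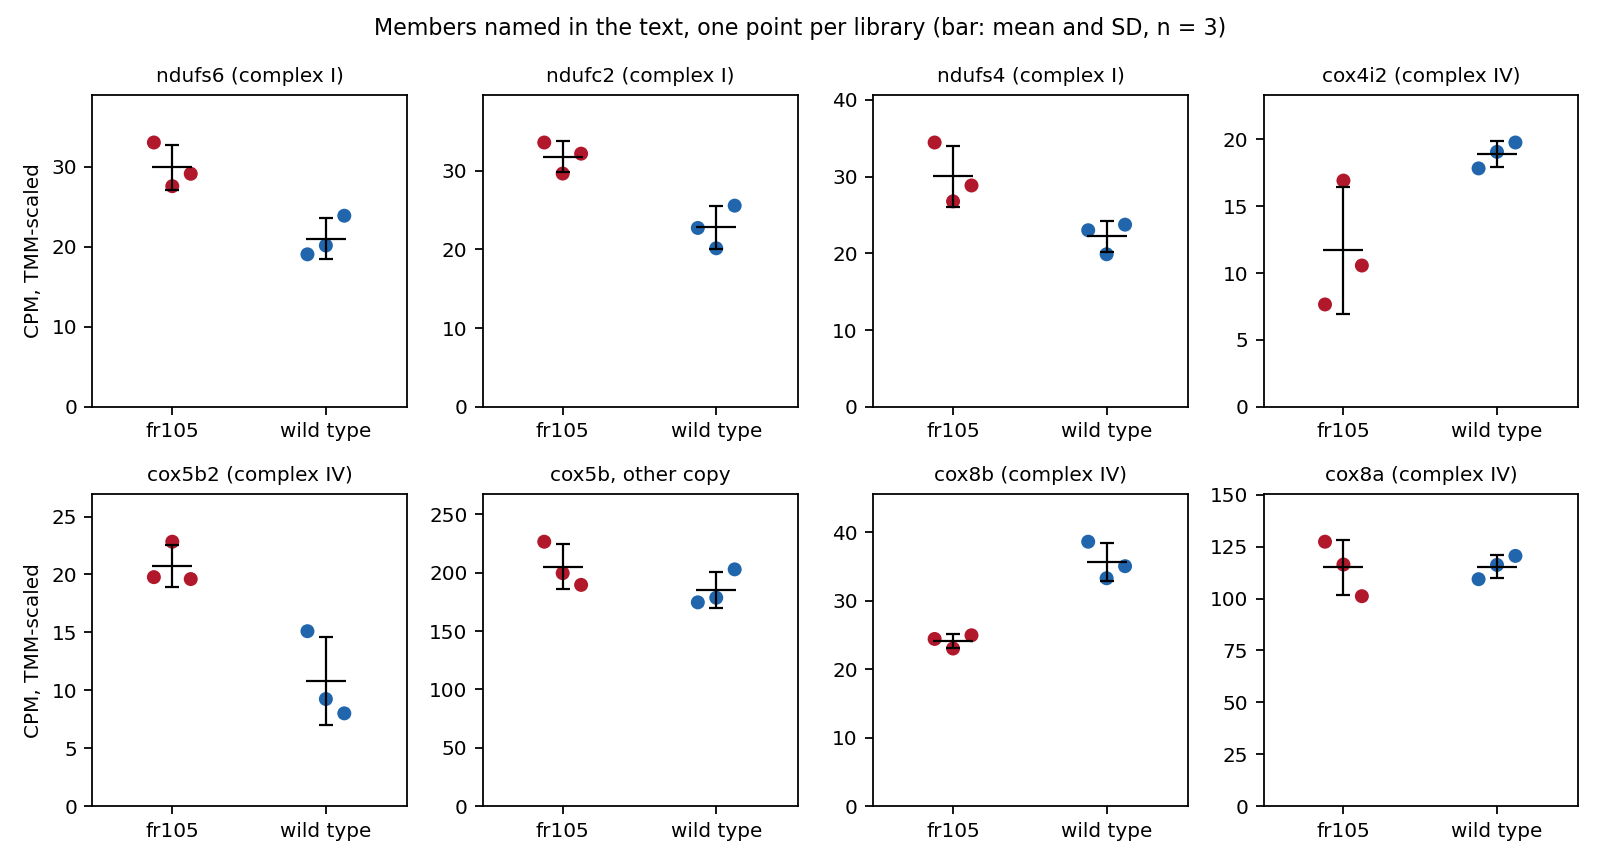
CPM (TMM-scaled, vertical axes starting at 0) of 8 members in each library, with fr105 mutants in red on the left and wild type in blue on the right, and bars for the mean and SD of 3 fish. *ndufs6*, *ndufc2*, *ndufs4* and cox5b2 are higher in all mutants, *cox8b* and *cox4i2* are lower in all mutants, and *cox8a* and the first *cox5b* copy overlap.

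A list of complex IV isoforms with heart, muscle or lung forms in mammals was considered together. These were *cox8b*, *cox7a1* and a second *cox6a1* gene that tables of the study call cox6a2, which are heart and muscle forms in mammals, and *cox4i2*, a lung form there. All 4 had an estimate below 0, and only *cox8b* was called by edgeR, beside 19.8% of all genes. The list does not hold every tissue isoform. *cox6b2*, a testis form in mammals, was at 0.05 with overlapping groups. *cox4i2* (ENSDARG00000022509) had 7.65, 16.9 and 10.6 CPM in the mutants, and 17.8, 19.1 and 19.8 CPM in wild type. All mutants were below wild type, with mutant replicate 2 close to it. The log2 difference came to -0.69 (SE 0.26, edgeR adjusted p = 0.0964). It was called by DESeq2 and, without mutant replicate 2, by edgeR, at -1.05 and an adjusted p of 0.0106. The cox6a2 gene (ENSDARG00000054588) had 37.4, 51.0 and 54.0 CPM in the mutants and 50.3, 54.3 and 66.2 CPM in wild type, with an overlap (log2 fold change -0.26, edgeR adjusted p = 0.285). *cox7a1* was at -0.05 and turned sign when single libraries were left out. *ndufa4l2*, listed with them, had 0 counts. Of the skeletal muscle markers 2 passed the filter, and neither was called. *atp2a1*, a calcium pump, had 9, 9 and 7 counts in the mutants and 67, 18 and 23 counts in wild type, so that every mutant was below wild type (log2 fold change -2.01, edgeR adjusted p = 0.0504). *tnnt3a* had 166, 106 and 128 counts in the mutants and 83, 172 and 227 counts in wild type (log2 fold change -0.17), with overlap. Their part in the values of the isoforms was not tested.

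Of the further complex IV genes with lower estimates, *cox7a2l*, a factor for supercomplexes of complexes III and IV in mammals that tables of the study call cox7a3, had 50.7, 53.2 and 48.5 CPM in the mutants and 56.8, 64.2 and 56.6 CPM in wild type. The groups did not overlap, but the log2 fold change of -0.22 did not pass the test (edgeR adjusted p = 0.139). *cox4i1*, the ubiquitous form of subunit 4, was at -0.12 with overlapping groups. The duplicated genes *cox4i1l* and *ndufa4b* varied most between fish of one genotype. *cox4i1l* had 32.0, 36.1 and 9.70 CPM in the mutants and 9.64, 28.2 and 19.4 CPM in wild type, a within-group SD of 0.90 on the log2 scale. *ndufa4b* had 33.6, 30.2 and 47.0 CPM in the mutants and 13.9, 52.0 and 40.3 CPM in wild type, with an SD of 0.74. Wild-type replicate 4 was the lowest of the 6 fish for both genes, and neither showed a difference between the genotypes beyond that spread.

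In complex V, the ATP synthase, 18 of 20 members had an estimate above 0 (16 with upper quartile scaling), with a median of 0.18. None was called by edgeR, beside 19.8% of all genes. A total of 4 of 20 had an unadjusted p under 0.05, all on the higher side, which is near the 18.7% of all genes. DESeq2 called only *atp5mc1*. In 8 members (40%) all mutants were above wild type, beside 21.3% of all genes, and in none were they below, beside 20.6%. The catalytic head was represented by *atp5f1b* (ENSDARG00000070083), the beta subunit that makes ATP, with 991, 793 and 846 CPM in the mutants and 706, 654 and 747 CPM in wild type. The groups did not overlap, with a difference of 0.32 on the log2 scale (SE 0.12, edgeR adjusted p = 0.103). *atp5f1a*, the alpha subunit, had 871, 740.5 and 754 CPM in the mutants and 649, 626 and 729 CPM in wild type, again without overlap (log2 fold change 0.24, edgeR adjusted p = 0.184).

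The c subunit forms a ring that turns in the membrane as protons pass. Of its genes, *atp5mc1* and *atp5mc3* had the largest values of complex V and a wide spread. *atp5mc1* (ENSDARG00000056008) had 201, 135 and 150.0 CPM in the mutants, and 105, 98.7 and 137 CPM in wild type. Mutant replicate 1 was far above the other fish and wild-type replicate 6 lay within the mutant range. On the log2 scale the difference was 0.51 (SE 0.18, edgeR adjusted p = 0.0830). *atp5mc3* was at 0.47 and *atp5mc3b* at 0.11, both with overlapping groups. The stalk subunit *atp5po* was at 0.0049 and the inhibitor gene *atp5if1b*, whose product stops the enzyme from splitting ATP, at -0.07, both with overlap.

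Seen by library, the difference was graded rather than a clean split between the genotypes. The 91 subunit genes together took 0.917%, 0.799% and 0.812% of the counts in the mutants, and 0.720%, 0.706% and 0.806% in wild type. Wild-type replicate 6 thus lay among the mutants, and mutant replicate 1 stood above all other fish. Mutant replicate 1 had the highest value of the 6 libraries in 65 of the 94 members, and wild-type replicates 5 and 4 had the lowest in 46 and 30. Complex I took 0.184%, 0.161% and 0.165% of the counts in the mutants and 0.140%, 0.135% and 0.156% in wild type, without overlap. Complex V took 0.404% ± 0.0337 in the mutants and 0.350% ± 0.0272 in wild type (SD over 3 libraries), with overlap. Complex IV took 0.183% ± 0.0106 in the mutants and 0.175% ± 0.0120 in wild type, also with overlap.

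**Figure D3:**
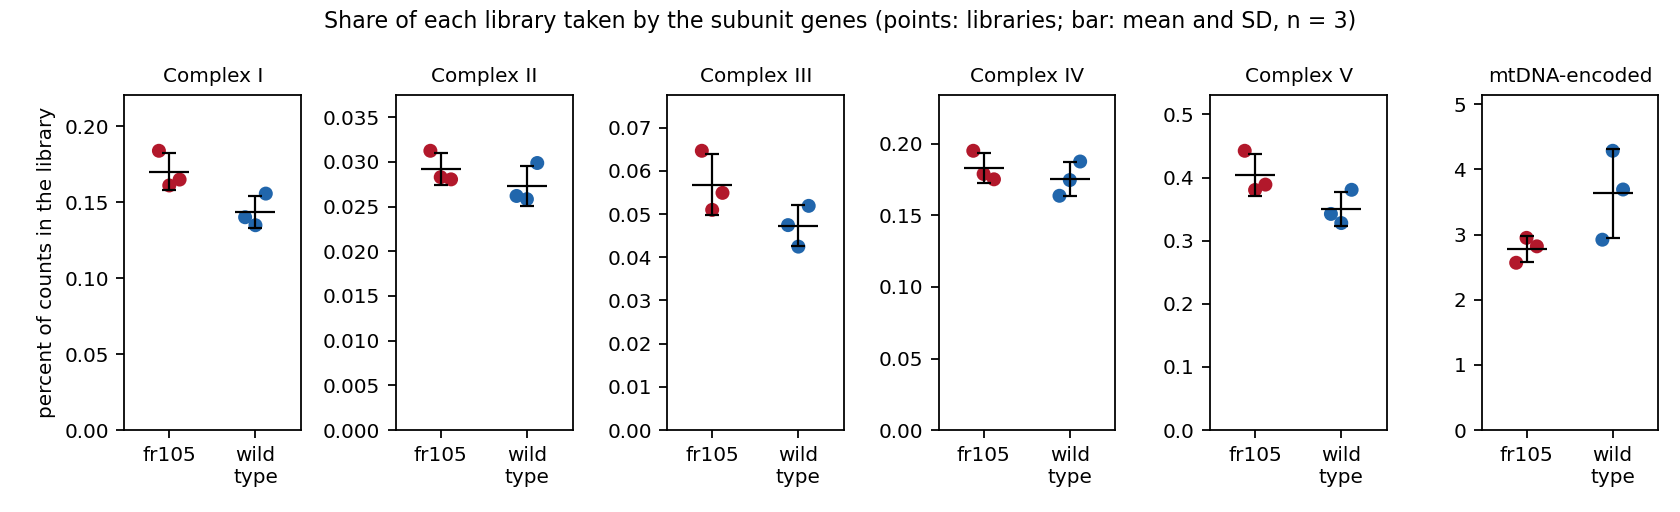
Percent of the counts of each library on the members of complexes I to V and on 13 genes of mitochondrial DNA, with fr105 mutants in red on the left and wild type in blue on the right (axes start at 0, scales differ). Points are libraries in the order of their replicate numbers and bars are the mean and SD of 3. Complex I does not overlap between the groups, whereas complexes II to V do, and the mitochondrial genes of wild-type replicate 4 lie at the level of the mutants.

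The subunits encoded by mitochondrial DNA, which are not members, lay on the other side of 0. All 13 had an estimate below 0, with a median log2 fold change of -0.37 and a range of -0.48 to -0.15. None was called by edgeR, beside 8.76% of all genes called lower, and DESeq2 called 2 of 13 lower, beside 9.67%. In 5 (38.5%, beside 20.6% of all genes) every mutant library lay below every wild-type library, and in 0 above. An unadjusted p under 0.05 was found in 5, beside 2820 of 16630 genes on the lower side. Their share of the counts was 2.57%, 2.95% and 2.82% in the mutants, and 2.92%, 4.28% and 3.69% in wild type. Wild-type replicate 4 was within the range of the mutants. When it was left out, edgeR called 4 of 13 lower and the median was -0.48. Without wild-type replicate 5, the highest, the median was -0.21 and edgeR called 0 of 13. *mt-co1*, the catalytic subunit of complex IV, had 8704, 10711 and 9688 CPM in the mutants and 9712, 15168 and 12817 CPM in wild type (log2 fold change -0.37, SE 0.18, edgeR adjusted p = 0.173). The largest value was that of *mt-nd4l* at -0.48, and the smallest those of *mt-atp6* and *mt-atp8*, both at -0.15. None of the 13 turned above 0 when any single library was left out.

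Set against the nuclear subunit genes, the counts on the 13 mitochondrial genes were 2.80, 3.69 and 3.47 times as many in the mutants and 4.06, 6.07 and 4.58 times as many in wild type. The mean ratio was 3.32 ± 0.464 in the mutants and 4.90 ± 1.05 in wild type (SD over 3 libraries). The groups did not overlap in this ratio, which was chosen after the values were seen and carries no test.

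**Figure D4:**
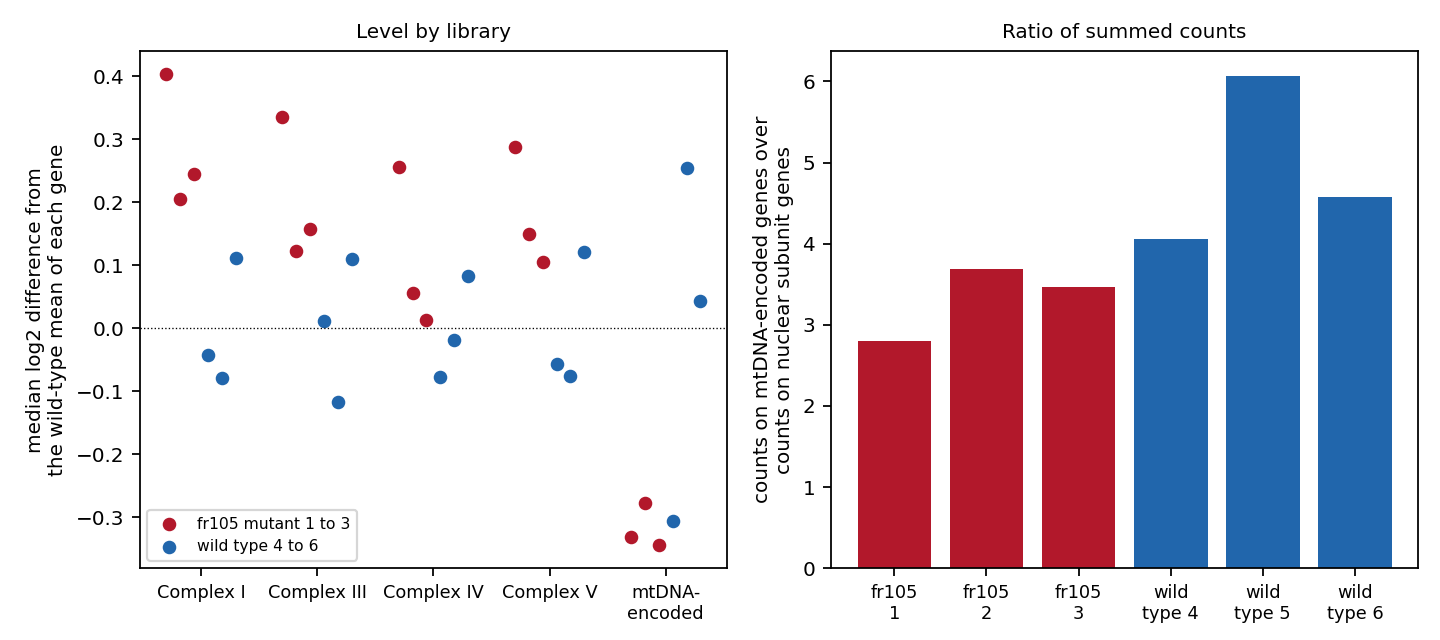
Left, median over genes of the log2 difference from the wild-type mean of each gene, for each library. Shown are complexes I, III, IV and V and the 13 mitochondrial genes. The fr105 mutants are in red and wild type in blue, with replicates in order from left to right. Right, counts on the 13 genes of mitochondrial DNA divided by counts on the 91 nuclear subunit genes, one bar per library. The ratio is at most 3.69 in the mutants and at least 4.06 in wild type, while in the left panel wild-type replicate 4 shares the mitochondrial level of the mutants.

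Genes outside the rule that assemble the same complexes had 6 of 53 called by edgeR, or 11.3%, beside 19.8% of all genes. Of 14 complex I assembly factors tested, 2 were called higher and 0 lower by edgeR, *acad9* (log2 fold change 0.66, adjusted p = 0.0486) and *coa1* (0.61, adjusted p = 0.0267), both factors for its membrane arm in mammals. Of 9 factors for complex III, *uqcc6*, a small assembly factor, was called higher with a log2 fold change of 1.097 (6.71, 4.53 and 6.41 CPM in the mutants, and 2.09, 2.31 and 3.84 CPM in wild type, edgeR adjusted p = 0.0295). *ttc19*, which clears fragments of the Rieske protein in mammals, was called lower at -0.59 (edgeR adjusted p = 0.0329). Of 26 factors for complex IV, *cox15*, a heme a synthesis enzyme, and *pet100* were called higher, at 0.35 and 0.41. Of 4 factors for complex V, edgeR and DESeq2 called 0, and 0 had an unadjusted p under 0.05.

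Among genes that supply the chain, edgeR called 2 of 19 in a citrate cycle list and 1 of 17 regulators of mitochondrial biogenesis. It called 3 of 18 genes for import and carriers (16.7%). Of all genes tested, 19.8% were called. The citrate cycle list, with 19 genes tested, also held pyruvate dehydrogenase genes and *mdh1aa*, a gene for the cytosolic malate dehydrogenase. From this list, *ogdhb*, a subunit of the oxoglutarate dehydrogenase, was called higher at 0.60, and *mdh1aa* lower at -0.47 (adjusted p = 0.0334 and 0.0193, edgeR). Of 17 regulators of mitochondrial biogenesis, only *twnk*, the helicase of mitochondrial DNA, was called, at 0.42, and the median was -0.03. Among 18 genes for import and carriers, the outer membrane channel *vdac3* was called higher, with 70.8, 87.9 and 51.8 CPM in the mutants and 36.2, 29.0 and 40.5 CPM in wild type. Its groups did not overlap, with a difference of 0.99 on the log2 scale (SE 0.20, edgeR adjusted p = 0.0124). The related channel *vdac1* was called lower at -0.42. *slc25a6*, an ADP/ATP carrier gene, had 0, 0 and 0 counts in the mutants and 10, 12 and 12 counts in wild type, at least 3.52-fold lower against a floor of 3 counts per mutant library. Of these 12 genes called in other lists, 10 lost the call under at least 1 alternative, and *vdac3* and *slc25a6* kept it under each alternative that tested them. *cox15*, *pet100* and *twnk* lost it under 9 of 14 alternatives, including each library left out, and *acad9* lost it under 7.

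The 73 mitochondrial ribosomal protein genes build the ribosome that makes the 13 mitochondrial subunits. Their median was 0.20, as for the members, with 60 estimates above 0. Of them, edgeR called 2 higher (0 with upper quartile or library size scaling), or 2.74%, beside 11.0% of all genes. In 17 (23.3%) every mutant library lay above every wild-type library, and in 1 below, beside 21.3% and 20.6% of all genes. The 89 cytosolic ribosomal protein genes tested had a median of -0.27, with 84 estimates below 0. Of these, edgeR called 4 lower (14 with upper quartile scaling), or 4.49%, beside 8.76% of all genes. DESeq2 called 24 of 90 lower and 1 higher, beside 9.67% and 11.7% of all genes. In 64 of the 89 (71.9%) every mutant library lay below every wild-type library, and in 1 above, beside 20.6% and 21.3% of all genes. No test compared these groups with the members.

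Markers of blood cell types and of dividing cells differed between the same libraries. Of 16 proliferation genes tested, 9 were called higher by edgeR, beside 11.0% of all genes, and their summed share was 0.174% to 0.209% in the mutants and 0.111% to 0.160% in wild type. By that share the 6 libraries stood in the same order as by the share of complex I, from mutant replicate 1 at the top to wild-type replicate 5 at the bottom. For all subunits together and for complexes III and V, the order differed only in that wild-type replicate 6 stood above mutant replicate 2. Complex IV and the erythroid genes each had a further order. Leaving out mutant replicate 1 or 3 gave 1 proliferation call, leaving out wild-type replicate 5 gave 2 calls, and leaving out wild-type replicate 4 gave 3. Of 13 erythroid genes 6 were called higher, with a summed share of 2.36% to 3.11% in the mutants and 1.19% to 2.71% in wild type. Erythroid calls numbered 2 when mutant replicate 1, mutant replicate 3 or wild-type replicate 6 was left out, 3 when mutant replicate 2 was, and 9 when wild-type replicate 4 was. Of 5 thrombocyte genes tested 4 were called higher (3 without any single library other than wild-type replicate 4), with a median log2 fold change of 1.03 and a share of 0.0278% to 0.0396% in the mutants and 0.00992% to 0.0200% in wild type. Of 15 macrophage genes 3 were called higher (5 without wild-type replicate 6), with a share of 0.201% to 0.214% in the mutants and 0.176% to 0.206% in wild type. In that list 10 estimates were above 0 and 5 below. Several of its entries share the symbol *mfap4*, and its *cd74a* and *cd74b* are B cell markers in the paper as well. The 9 genes of the neutrophil list took 4.38% to 5.87% in the mutants and 2.84% to 4.43% in wild type. Of these, 1 was called higher (0 without any single library other than wild-type replicate 6, and 1 lower when wild-type replicate 4 was left out). The list includes *nccrp1*, which the paper uses as a marker of innate lymphocytes, so it is not purely neutrophil. Of 11 B cell genes 10 were called lower and of 12 T and NK cell genes 6, beside 8.76% of all genes. None of these markers was at 0 in all libraries. Their part in the values of the respiratory chain genes was not tested.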

How the data were processed

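RNA-seq libraries of 3 fr105 homozygotes and 3 siblings of wild type were analysed, grouped by the genotype in the labels. The authors aligned paired-end reads of poly-A RNA to GRCz10 (per the methods and processing notes, STAR 2.5.2b-1) and counted them per gene with featureCounts 1.6.0.1, and the deposited values are raw counts without normalization. The kit was stranded, and the methods name no strand setting for the counting and state default parameters unless otherwise given. By default featureCounts does not use strand, and genes that overlap on opposite strands are less certain, as are near-identical copies.

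Counts were tested with edgeR 4.0.16 in R 4.3.3 (TMM, filterByExpr with at least 10 counts and 15 in total, quasi-likelihood F test, two-sided, Benjamini-Hochberg adjustment over all 16630 genes tested, threshold 0.05). A change is called where it passes that threshold. The standard error (SE) is the size of the log2 fold change over the root of its F statistic, and within-group SDs are of log2 of CPM plus 0.5. With 3 fish per group, the p-values weigh the group difference against the spread between fish, which edgeR moderates across genes. Total counts were 34759504 to 39404324 per library. The script was tested on simulated data. There, 2 of 95 genes with a true absolute log2 fold change of 0.5 were called. At a true value of 1.5, 75 of 98 were called, and at 0, 9 of 16097. Far fewer genes had a true difference there than were called in the fish (3291 of 16630), so the adjustment was stricter. These rates therefore do not give the sensitivity for the members.

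Symbols came from a table of gene names that paired 26269 of 32105 genes, with names in the study's tables given where copies share a symbol. Members and lists were chosen with earlier results of these data known. Members named are, per complex, the 4 largest rises and 2 largest falls among those called with a mean of at least 100 counts, every member called lower if 8 or fewer, every called member that changed by 1 or more on the log2 scale, both genes of a paralogue pair with 1 called, the tissue isoforms, and in other lists the 2 largest rises and falls among those called. Uncalled members and mitochondrial genes described beside these were chosen after their values were seen, as were the modules of complex I. Alternatives were other scalings (RLE, upper quartile, library size), DESeq2 1.42.0, no filter or a minimum mean of 50 counts, a robust fit, the 20 most abundant genes left out of scaling, an adjusted p of 0.01, subunits alone, and each library left out. IT325 libraries were not analysed here, and no coordinates are given because no annotation of the build was used.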

Additional observations from a re-analysis of the deposited data

How the results depend on the processing

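The number of members called higher was 4. It was 3 with upper quartile scaling, library size scaling or no filter, 8 with DESeq2 (added: *atp5mc1*, *cox5a*, *ndufab1* and *uqcrfs1*) and 0 at an adjusted p of 0.01, with 0 to 7 when 1 library was left out. The number called lower was 1, against 2 with DESeq2 (added: *cox4i2*) and 1 to 2 with 1 library left out. Over all genes, 3291 were called, 1399 at an adjusted p of 0.01 and 1927 to 2837 with 1 library left out. The median log2 fold change of the members stayed between 0.14 and 0.26 in every alternative. Upper quartile scaling moved the median of all genes to -0.05 and left 76 members above 0. *ndufs4* lost its call with upper quartile scaling, library size scaling and no filter (adjusted p of up to 0.0671, edgeR). *cox8a* turned to 0.0051 with no filter. With 1 library left out it lay between -0.082 and 0.084, and *cox7a1* between -0.25 and 0.12. The cause of these shifts was not tested. No paired analysis was possible because the groups share no replicate numbers. Levels of different genes cannot be compared without lengths. Each of the 4 calls on the higher side was lost when some single library was left out, whereas the call of *cox8b* was kept.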
